A study of Mus musculus with 6 samples.

Results

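The trophoblast lineage genes described here are 10 transcription factor genes, Tead4, Cdx2, Gata3, Eomes, Elf5, Tfap2c, Ets2, Gata2, Hand1 and Tfap2a. They were chosen by name for their known parts in the trophoblast, with earlier results of these data known. All 10 were found by Ensembl identifier among the 43309 genes of the count table. RNA of mouse embryonic stem cells (mESCs) was made into 6 libraries with the TruSeq Stranded mRNA kit, which selects polyadenylated RNA, and sequenced fragments were counted for each gene. mESCs are pluripotent cells of the early embryo that can be grown as lines. The control group held 3 lines labelled Zbtb24 wild-type (2lox/+) and the other group held 3 lines labelled Zbtb24 knockout (1lox/1lox), and the sources used here do not describe these alleles further. All 6 lines were labelled J1 (129SV) and were grown in serum medium on gelatin, with no feeder layer, and each line was a clone that gave 1 library. Zbtb24 encodes a zinc finger protein with a BTB domain.

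The trophoblast is the first lineage that parts from the embryo proper. It begins as the trophectoderm, the outer epithelium of the blastocyst, and later builds most of the fetal part of the placenta. In outer cells TEAD4, with its co-activators YAP1 and WWTR1 of the Hippo pathway, switches on Cdx2 and Gata3, and Eomes, Elf5, Tfap2c and Ets2 then sustain the trophoblast stem cell state, while Gata2 and Hand1 act in giant cells and other differentiated trophoblast. mESCs hold this programme back, through POU5F1 among others, and the Elf5 promoter is known as a gatekeeper that is methylated in mESCs and unmethylated in trophoblast stem cells. Most of these factors have other duties too. Eomes works in the primitive streak, Hand1 in mesoderm and heart, Gata2 and Gata3 in blood, Tfap2a in surface ectoderm and neural crest, and Cdx2 in the posterior embryo and gut.

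The promoter sequences of the members whose counts moved by at least 2-fold are shown first where the sequence table held them, with Elf5 beside them because its promoter is the known methylation gatekeeper. Each window runs from 250 bases before to 50 bases after a RefSeq start site (GRCm38.p6, the assembly of mm10), is written on the gene's strand, and has every CpG dinucleotide in capitals. The table held 10 windows for 7 of the 10 members, and no window for Hand1, Tead4 or Tfap2c. The windows shown are those of Cdx2 (chr5:147307200-147307499, minus strand), Gata2 (chr6:88193641-88193940 and chr6:88198414-88198713, plus strand), Gata3 (chr2:9878551-9878850, minus strand) and Elf5 (chr2:103411848-103412147 and chr2:103423818-103424117, plus strand).
Cdx2: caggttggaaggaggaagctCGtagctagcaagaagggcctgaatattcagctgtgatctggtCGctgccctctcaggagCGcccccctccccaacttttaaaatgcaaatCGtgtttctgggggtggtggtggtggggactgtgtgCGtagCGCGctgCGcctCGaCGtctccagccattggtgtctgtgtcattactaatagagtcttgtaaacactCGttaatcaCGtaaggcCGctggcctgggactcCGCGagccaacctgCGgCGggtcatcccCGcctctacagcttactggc
Gata2, first start: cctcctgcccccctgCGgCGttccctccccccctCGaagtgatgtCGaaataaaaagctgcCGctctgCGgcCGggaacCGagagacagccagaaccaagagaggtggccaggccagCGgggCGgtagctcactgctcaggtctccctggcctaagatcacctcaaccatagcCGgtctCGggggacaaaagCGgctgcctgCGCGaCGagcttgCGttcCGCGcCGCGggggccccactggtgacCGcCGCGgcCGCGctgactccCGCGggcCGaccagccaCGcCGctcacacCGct
Gata2, second start: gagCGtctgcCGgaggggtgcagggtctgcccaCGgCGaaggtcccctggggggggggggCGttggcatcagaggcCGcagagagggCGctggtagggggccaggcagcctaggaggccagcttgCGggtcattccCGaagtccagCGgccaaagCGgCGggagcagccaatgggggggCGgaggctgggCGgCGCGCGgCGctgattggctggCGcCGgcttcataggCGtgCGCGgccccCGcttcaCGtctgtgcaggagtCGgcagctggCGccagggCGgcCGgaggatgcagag
Gata3: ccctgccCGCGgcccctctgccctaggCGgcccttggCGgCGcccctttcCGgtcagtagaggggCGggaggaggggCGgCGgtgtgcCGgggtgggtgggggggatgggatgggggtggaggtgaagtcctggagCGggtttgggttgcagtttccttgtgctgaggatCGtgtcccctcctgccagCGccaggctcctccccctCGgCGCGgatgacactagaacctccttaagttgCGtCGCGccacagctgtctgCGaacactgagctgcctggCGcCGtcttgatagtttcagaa
Elf5, first start: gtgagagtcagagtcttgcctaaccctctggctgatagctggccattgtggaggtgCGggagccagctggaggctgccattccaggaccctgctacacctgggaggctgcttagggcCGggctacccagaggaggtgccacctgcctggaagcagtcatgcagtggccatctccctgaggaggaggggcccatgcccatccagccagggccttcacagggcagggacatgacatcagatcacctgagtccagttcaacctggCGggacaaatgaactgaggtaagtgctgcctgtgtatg
Elf5, second start: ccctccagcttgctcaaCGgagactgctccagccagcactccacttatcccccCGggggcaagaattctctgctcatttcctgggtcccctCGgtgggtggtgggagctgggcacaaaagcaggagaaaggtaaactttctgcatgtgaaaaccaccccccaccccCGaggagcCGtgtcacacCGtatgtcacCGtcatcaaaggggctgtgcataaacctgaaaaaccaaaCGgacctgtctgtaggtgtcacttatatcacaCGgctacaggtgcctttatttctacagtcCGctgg

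The first Elf5 window held 3 CpGs and the second 10, against 18 in the Cdx2 window, 22 in that of Gata3, and 32 and 29 in those of Gata2. Over the 32851 windows of the sequence table outside chromosome 18, called all windows below, the median was 7 CpGs, with quartiles of 3 and 20. The first Elf5 window thus lay at the lower quartile, and the Gata3 window and both Gata2 windows lay above the upper one. The windows were also searched on both strands for the letters of known sites. GGAATG was taken as the TEAD site. GATA sites were AGATAA and AGATAG, or with T as the first letter TGATAA and likewise TGATAG. The AP-2 site was GCCNNNGGC. The TEAD letters stood in 2 of the 10 member windows, in the first Elf5 window and in the second of Gata2, and in 14.7% of all windows. The GATA letters stood in 2, in the first Elf5 window and in that of Gata3, and in 29.8% of all windows. The AP-2 letters stood in 3, in those of Cdx2 and Gata3 and in the second of Gata2, and in 16.6% of all windows. These are matches of letters, and no binding was measured.

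The libraries held 26987179 to 27754105 counted fragments in the control group and 25042261 to 28838924 in the group labelled knockout. Counts of the targeted gene were higher in the group labelled knockout. Zbtb24 was counted in 489 to 512 fragments in the control lines and in 888 to 1039 in the lines labelled knockout, with a log2 fold change of 0.99 (SE 0.05, edgeR adjusted p = 4.32e-23). Counts of a whole gene cannot show which exons are left, and the group is therefore called the libraries labelled knockout throughout. Fold changes are given as labelled knockout against control. Values normalised for library size by the TMM method are given as CPM, the counts scaled to a library of 1000000, and a gene was called at an adjusted p of at most 0.05 over all 16823 genes tested. The p-values set the difference against the spread between the 3 lines of each group, which the test moderates across genes. A difference that all 3 lines of a group share, whatever its source, is not part of that spread.

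The libraries were checked against marker genes of mESCs and of other cell types. Counts of markers called stand beside a background of 35.2% of all genes tested called lower and 34.4% called higher. All 9 mESC markers were counted at 1852 fragments or more in every library, 8 of them rose and Zfp42 fell. Klf4, a factor of naive pluripotency, had 1911, 1852 and 1859 fragments in the control lines and 6588, 6454 and 6908 in the lines labelled knockout. Of the 7 fibroblast markers, 6 were tested, 3 of them (Col3a1, Dcn and Postn) through control libraries alone, and all 6 fell, with a median log2 fold change of -3.16, or -1.80 with the 2 genes at the floor of 3 counts set at their bound. Their summed level was 56.0 to 59.5 CPM in the control lines, mostly Col1a1, and 9.53 to 10.1 in the lines labelled knockout. In the latter group the mean was 4.89 CPM for Thy1 and 3.93 for Col1a1. Lum, a defining fibroblast gene, had no count in any library. Lineages that share members with the trophoblast were checked as well. The 6 markers of the primitive streak and mesoderm summed to 5.90 to 6.66 CPM in the control lines and to 4.75 to 5.31 in the lines labelled knockout, with 1 lower, 1 higher and 2 not called of the 4 tested. The 5 surface ectoderm markers summed to 26.9 to 28.9 CPM in the control lines and to 32.8 to 33.7 in the lines labelled knockout, mostly Grhl3, an epithelial factor gene that had 715, 720 and 654 fragments against 863, 807 and 909 and rose by 0.38 on the log2 scale. The keratin gene Krt14 had 50, 62 and 66 fragments against 6, 2 and 3 and was tested, like Krt5, through control libraries alone. Trp63 was tested through the group labelled knockout alone. Krt5 and Trp63 had at most 13 fragments in a library and Tfap2b at most 1. Of the 6 markers of blood and endothelium 5 were tested, 4 of which fell, among them Tal1 and Cdh5 (the latter tested through control libraries alone), while Pecam1, with 2848 to 3407 fragments the most abundant of them, rose by 0.12. The part of these other cell types in the values below was not tested.

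Of the 10 trophoblast lineage genes 7 were called, 4 lower and 3 higher in the libraries labelled knockout. This count is close to the background, since 69.5% of all genes tested were called, 35.2% lower and 34.4% higher. Of all genes tested 11.8% were called and at least 2-fold lower, and 4 members were, namely Hand1, Gata2, Gata3 and Cdx2. Cdx2 was near the limit of detection, and its call did not hold under every alternative, as given below. No member was at least 2-fold higher. In 8 members the normalised values left no overlap between the groups, against 71.5% of all genes. The median log2 fold change of the members was -0.53, beside -0.00036 for all genes tested. It lies between the values of Elf5 and Tfap2a, neither of which was called, and without Elf5, which entered the test through control libraries alone, it was -0.34. In bulk libraries fewer cells of a type and less RNA per cell cannot be told apart.

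**Figure D1:**
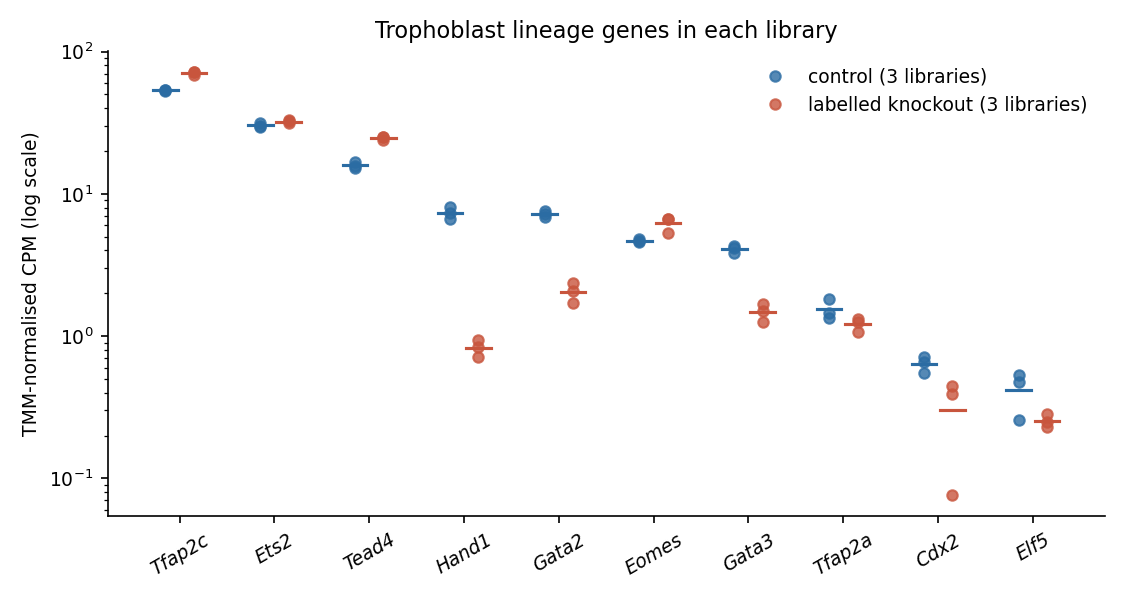
TMM-normalised CPM of each trophoblast lineage gene on a log axis, with 1 point per library and a bar at the mean of 3 libraries, control in blue and labelled knockout in red. Hand1 fell from a mean of 7.37 to 0.828 CPM, and the groups overlap only for Ets2 and Elf5.

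Tead4 stands at the top of the trophectoderm cascade. In mm10 the gene spans bases 128224288 to 128300823 of chromosome 6, on the minus strand. It was counted in 431, 459 and 432 fragments in the control lines and in 630, 617 and 703 in the lines labelled knockout. Every library labelled knockout lay above every control library. The level rose from 15.9 ± 0.712 to 24.7 ± 0.502 CPM (SD, n = 3 lines each), a log2 fold change of 0.63 (SE 0.0542, edgeR adjusted p = 1.23e-14). The genes around it moved the same way. Of the 159 other tested genes within 10 Mb, 81.8% had a log2 fold change above 0, their median was 0.56, and 64 of them had a larger log2 fold change than Tead4. Relative to that median the value of Tead4 was 0.07, and 0.09 relative to the genes within 5 Mb. For the 9 other members the median of the genes within 10 Mb lay between -0.17 and 0.07. The part of the neighbourhood in the value of Tead4 was not tested.

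**Figure D2:**
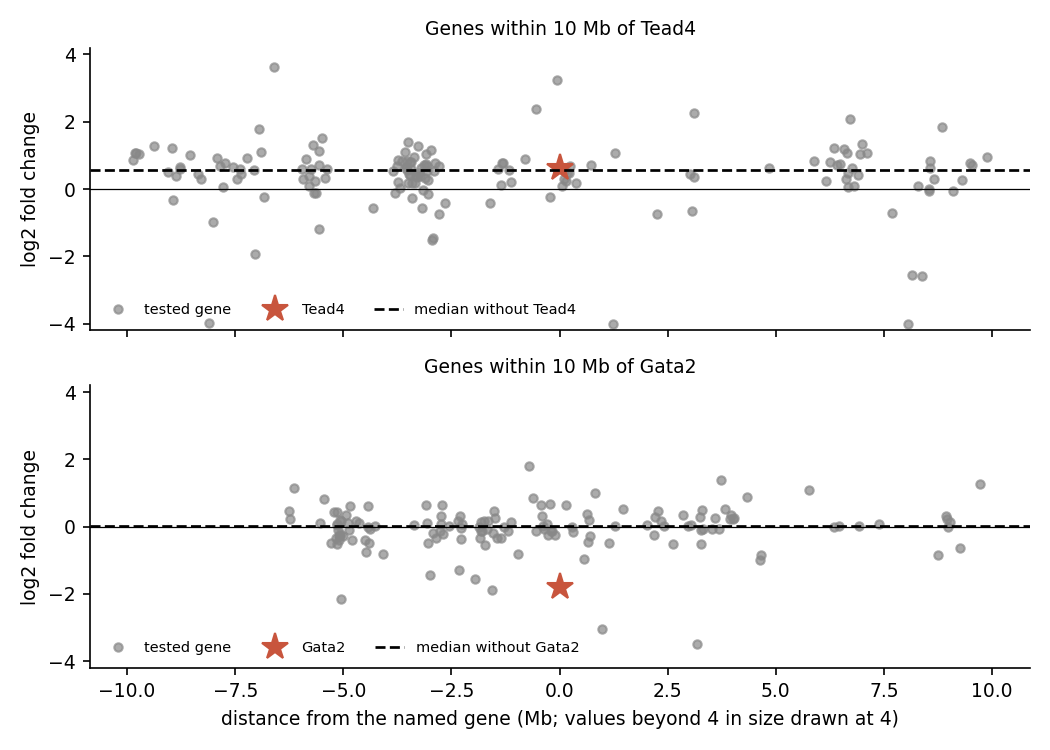
Log2 fold change (labelled knockout against control) of each tested gene within 10 Mb of Tead4 (top) and of Gata2 (bottom), both on chromosome 6, by distance in Mb, with the named gene as a star and the median of the others as a dashed line. Tead4, at 0.63, lies close to the median of its neighbours at 0.56, whereas Gata2, at -1.80, lies far below its neighbours with a median of 0.01.

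Cdx2 and Gata3 are the targets that TEAD4 activates in the trophectoderm, and both fell. Cdx2, a homeobox gene on chromosome 5 from 147300805 to 147307270 on the minus strand, was near the limit of detection, with 20, 15 and 18 fragments in the control lines and 2, 11 and 11 in the lines labelled knockout. The groups did not overlap, but library 1 of the group labelled knockout stood apart from the other two. The level was 0.637 ± 0.0839 CPM in the control lines and 0.304 ± 0.199 in the lines labelled knockout (SD, n = 3 each), a log2 fold change of -1.06 (SE 0.381, edgeR adjusted p = 0.0125). The call rested on library 1 of the group labelled knockout. Without it the log2 fold change was -0.61 and the edgeR adjusted p = 0.143, and with DESeq2 and all libraries the adjusted p was 0.0573.

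Gata3, a zinc finger gene on chromosome 2 from 9857078 to 9890034 on the minus strand, had 118, 118 and 106 fragments in the control lines and 33, 41 and 42 in the lines labelled knockout. The groups lay far apart, at 4.12 ± 0.227 and 1.47 ± 0.201 CPM (SD, n = 3 each). The log2 fold change was -1.48 (SE 0.144, edgeR adjusted p = 8.17e-13). In GENCODE M21 1 exon of 9230102O04Rik overlaps exons of Gata3 on the same strand, and fragments in both genes were discarded, so Gata3 may be under-counted. 9230102O04Rik itself had at most 2 fragments in a library.

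The factors of the trophoblast stem cell state did not move as a group, since 2 of the 4 rose and the other 2 were not called. Tfap2c, which encodes an AP-2 factor also used in germ cells, lies on chromosome 2 from 172549593 to 172558622 on the plus strand and was the most highly counted member. It had 1476, 1479 and 1471 fragments in the control lines and 1864, 1682 and 2032 in the lines labelled knockout. The values did not overlap, and the level rose from 53.3 ± 0.731 to 70.6 ± 1.96 CPM (SD, n = 3 each). The log2 fold change was 0.41 (SE 0.0346, edgeR adjusted p = 1.04e-14). Tfap2c took 42.1% to 42.8% of the fragments of the 10 members in the control lines and 49.2% to 51.3% in the lines labelled knockout, so the summed level of the members, 124 to 127 against 139 to 141 CPM, mostly followed this gene.

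Eomes, a T-box gene on chromosome 9 from 118478212 to 118486132 on the plus strand, also rose. It was counted in 136, 128 and 125 fragments in the control lines and in 174, 165 and 149 in the lines labelled knockout. The groups did not overlap, but library 3 of the group labelled knockout came closer to the control libraries than the others did. The log2 fold change was 0.40 (SE 0.104, edgeR adjusted p = 6.76e-04). The mesoderm markers named above, of a lineage in which Eomes works as well, did not rise together, and of them Mixl1 rose by 1.18 on the log2 scale and Kdr fell by 0.82. The median of the 153 other tested genes within 10 Mb of Mixl1 was 0.49, and that of the 54 around Kdr was 0.09.

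Elf5, an ETS factor gene on chromosome 2 from 103411688 to 103450989 on the plus strand, had 15, 13 and 7 fragments in the control lines and 6, 7 and 7 in the lines labelled knockout. It passed the minimum of 10 counts through control libraries alone. The groups overlapped, and the log2 fold change was -0.72 with a 95% interval from -1.58 to 0.13 (edgeR adjusted p = 0.125). A difference was not detectable at this depth. Its level was 0.42 ± 0.146 CPM in the control lines and 0.254 ± 0.0278 in the lines labelled knockout (SD, n = 3 each). Dnmt3b, which encodes a de novo DNA methyltransferase, had 11504 to 12507 fragments in the control lines and 2575 to 2923 in the lines labelled knockout, while Dnmt1, the maintenance enzyme, had 9203 to 9691 and 8608 to 9872. No DNA methylation was measured.

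Ets2, an ETS factor gene on chromosome 16 from 95702075 to 95721051 on the plus strand, was well counted, with 888, 819 and 810 fragments in the control lines and 821, 797 and 926 in the lines labelled knockout. The groups overlapped. The log2 fold change was 0.09 with a 95% interval from -0.0022 to 0.18 (edgeR adjusted p = 0.077), so a change as large as that of Tfap2c lay outside the interval. Without control library 1 its adjusted p from edgeR was 0.0339 at a log2 fold change of 0.12.

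Hand1 and Gata2, the members that act in differentiated trophoblast, held the largest changes among the members. Hand1, which encodes a basic helix-loop-helix factor that drives giant cell formation, lies on chromosome 11 from 57828705 to 57832818 on the minus strand. It was counted in 188, 202 and 222 fragments in the control lines and in 22, 23 and 20 in the lines labelled knockout. The lowest control value, 6.68 CPM, lay far above the highest of the other group, 0.934 CPM, and the lines of each group lay close together. The level fell from 7.37 ± 0.703 to 0.828 ± 0.114 CPM (SD, n = 3 each), a log2 fold change of -3.15 or 8.91-fold (SE 0.147, edgeR adjusted p = 1.87e-24). Of the 239 other tested genes within 10 Mb, 4 had a lower log2 fold change.

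Gata2, a zinc finger gene on chromosome 6 from 88193891 to 88207032 on the plus strand, was counted in 192, 197 and 209 fragments in the control lines and in 54, 42 and 67 in the lines labelled knockout. The groups did not overlap. The level fell from 7.20 ± 0.396 to 2.05 ± 0.334 CPM (SD, n = 3 each), a log2 fold change of -1.80 (SE 0.12, edgeR adjusted p = 1.71e-18). Although Gata2 shares its chromosome with Tead4, the median of the 141 other tested genes within 10 Mb of it was 0.01.

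Tfap2a, an AP-2 factor gene on chromosome 13 from 40715302 to 40738376 on the minus strand, had 38, 50 and 40 fragments in the control lines and 28, 31 and 37 in the lines labelled knockout. The normalised values of the groups did not overlap, but the difference did not pass the test. The log2 fold change was -0.34 with a 95% interval from -0.74 to 0.05 (edgeR adjusted p = 0.118). A halving or a doubling of Tfap2a lay outside the interval.

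**Figure D3:**
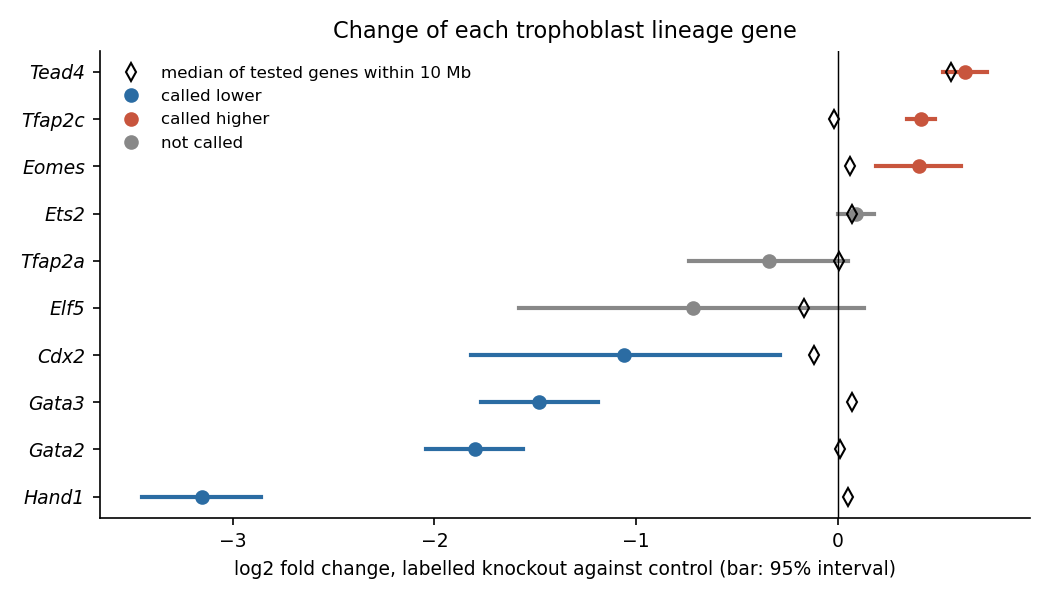
Log2 fold change (labelled knockout against control) of each trophoblast lineage gene with its 95% interval, called lower in blue, called higher in red and not called in grey, and the median of the tested genes within 10 Mb as an open diamond. The falls of Hand1, Gata2 and Gata3 lie far from the median of their neighbours, and the rise of Tead4 lies near it.

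Levels were compared between genes as CPM per kilobase of the longest annotated transcript. Tfap2c was the highest in both groups, at 17.9 ± 0.245 in the control lines and 23.6 ± 0.657 in the lines labelled knockout (SD, n = 3 each). In the control libraries Ets2, Tead4, Hand1 and Gata2 followed at 7.79, 5.18, 3.87 and 2.02, then Eomes at 1.32 and Gata3 at 1.28, which overlapped, and Tfap2a, Cdx2 and Elf5 were lowest at 0.442, 0.282 and 0.129. In the libraries labelled knockout the order changed in that Hand1 dropped from rank 4 to rank 7 and Eomes went from rank 6 to rank 4, above Gata2. Ets2 at 8.28 and Tead4 at 8.03 overlapped there, Eomes stood at 1.75, Gata2, Gata3 and Hand1 lay together at 0.574, 0.458 and 0.435, and Tfap2a at 0.348 overlapped with Hand1. Cdx2 at 0.135 and Elf5 at 0.0779 overlapped as well. With the union of annotated exons as the length, the order in the control lines was the same, and in the libraries labelled knockout Tead4 came before Ets2 and Hand1 before Gata2 and Gata3. Among all genes tested, Elf5 stood at percentile 9.06 by CPM in the control lines and Tfap2c, in the lines labelled knockout, at percentile 79.9.

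Most members belong to families whose proteins bind like sequences, and the paralogs moved in both directions. Of the 18 paralogs 13 were tested, Tfap2e through control libraries alone, of which 7 were lower, 4 higher and 2 not called. The shares over all genes tested were 35.2% lower and 34.4% higher. Within the TEAD family Tead3 fell from 388, 410 and 419 fragments to 46, 52 and 70, a log2 fold change of -2.78 (edgeR adjusted p = 1.02e-28). Tead1 rose by 0.37 on the log2 scale, and Tead2 rose by 0.25. Per kilobase Tead2 and Tead1 made up most of the family in both groups, the share of Tead4 was 9.69% ± 0.308 in the control lines and 12.8% ± 0.251 in the lines labelled knockout, and that of Tead3 was 7.97% ± 0.382 and 0.981% ± 0.162 (SD, n = 3 each). The summed TEAD level was 53.4 ± 0.685 in the control lines and 62.7 ± 0.32 in the lines labelled knockout.

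In the GATA family, Gata1 and Gata4 fell as Gata2 and Gata3 did, by 0.87 and 0.97 on the log2 scale, and Gata6 was not called at a log2 fold change of 0.17. The summed level per kilobase was 5.84 ± 0.26 in the control lines and 2.53 ± 0.154 in the lines labelled knockout (SD, n = 3 each). The CDX family changed its make-up. Cdx1 had 8, 12 and 11 fragments in the control lines and 44, 29 and 28 in the lines labelled knockout, with a log2 fold change of 1.77 (edgeR adjusted p = 4.96e-07), while Cdx4 fell by 1.27. Cdx1 was 24.9% ± 4.91 of the CDX level per kilobase in the control lines and 71.3% ± 8.28 in the lines labelled knockout, and Cdx2 was 32.9% ± 4.92 and 14.2% ± 9.84 (SD, n = 3 each). All CDX genes were low, with a family sum of 0.858 and 1.02. Of the other paralogs, Ets1 fell from 167, 186 and 175 fragments to 39, 37 and 49 beside an Ets2 that was not called.

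**Figure D4:**
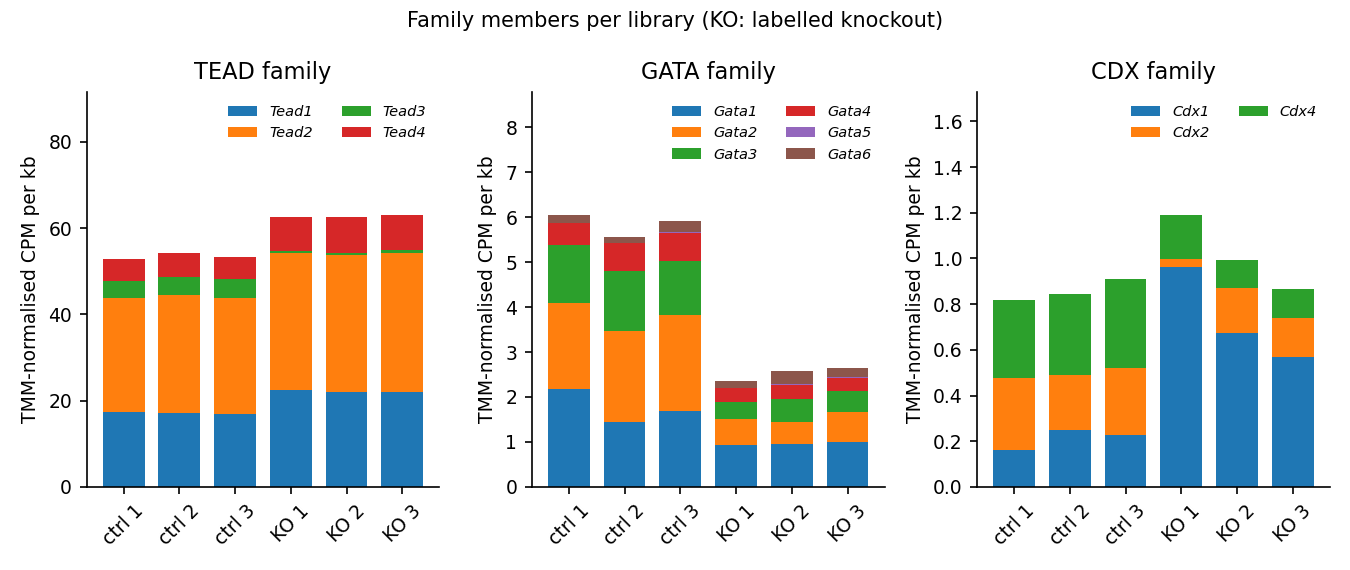
TMM-normalised CPM per kilobase of the TEAD, GATA and CDX genes, stacked within each of the 6 libraries (ctrl, control, and KO, labelled knockout), with a linear axis from 0 in each panel. The TEAD sum is higher and the GATA sum lower in the libraries labelled knockout, and Cdx1 fills most of the CDX bar there.

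Genes that mark or serve the trophectoderm and trophoblast stem cells were mostly lower in the libraries labelled knockout, on a list written with earlier results known. Of the 17 on the list 15 were lower, 1 higher and 1 not called, and 12 were at least 2-fold lower, where 35.2% and 11.8% of all genes tested were. The median log2 fold change was -1.64. Krt8 and Krt18 encode the paired keratins of simple epithelia such as the trophectoderm. Krt8 had 6234, 6249 and 6281 fragments in the control lines and 244, 258 and 339 in the lines labelled knockout, with a log2 fold change of -4.41 (SE 0.0436, edgeR adjusted p = 2.47e-52). Krt18 fell alike, by 4.19. Both have pseudogenes, and since fragments with multiple locations were left out, the share of their fragments that went uncounted is not known. Fgfr2, the receptor for the FGF4 that sustains trophoblast stem cells, fell from 632, 639 and 624 fragments to 155, 154 and 166. Sox21 alone rose, by 0.42. The fibroblast markers fell with this list, from 56.0 to 59.5 CPM in sum to 9.53 to 10.1, against 773 to 786 and 192 to 199 for the 17 genes, and the part of either in the other was not tested. The keratins and several other genes of the list are general epithelial or signalling genes.

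The genes of differentiated trophoblast and placenta included many that were hardly counted. Of the 16 genes on this list, also written with earlier results known, 9 were tested. All 9 were called lower, where 35.2% of all genes tested were. Pparg and Plac1, 2 of the 9, were tested through control libraries alone, so they had to be lower. The 7 genes not tested, Tpbpa, Synb, Prl3d1, Prl2c2, Prl3b1, Ctsq and Hsd3b6, had at most 5 fragments in any library. They include Tpbpa of the spongiotrophoblast and Prl3d1 and Prl2c2 of giant cells, which are defining genes of their cell types. Prl2c2 has near-identical copies that the counting discards. Plac1, a placental surface protein gene, had 51, 62 and 67 fragments in the control lines and 3, 2 and 3 in the lines labelled knockout, at least 17.8-fold lower when each library labelled knockout is set at a floor of 3 counts. Mmp9, a secreted protease gene of invading trophoblast and many other cells, fell from 74, 75 and 101 fragments to 20, 18 and 15. Peg10, an imprinted gene needed in the placenta, was the most abundant on the list, with 22661 to 24201 and 5552 to 6231 fragments.

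Among the 10 genes that feed signals into Cdx2 through the Hippo and Notch pathways, 7 were lower, 2 higher and 1 not called. Beside this, 35.2% of all genes tested were lower and 34.4% higher. The median log2 fold change of the 10 genes was -0.20. Amotl2 and Amot encode angiomotins, which bind YAP1. Amotl2 fell from 2623, 2701 and 2757 fragments to 467, 522 and 597, a log2 fold change of -2.28 (edgeR adjusted p = 4.11e-40), and Amot fell by 1.32. The co-activator genes themselves moved little, Yap1 by -0.21 and Wwtr1 by -0.19 on the log2 scale. Vgll4, which encodes a competitor of YAP1 for TEAD, rose by 0.27, but the 152 other tested genes within 10 Mb had a median of 0.51, so that relative to them its value was -0.24. The kinase genes of the pathway and the Notch receptor gene differed. Lats2 fell from 104, 146 and 130 fragments to 62, 54 and 64, which is 2.01-fold (edgeR adjusted p = 6.37e-09), and Notch1 fell by 0.90. Lats1 was called higher at 0.11 (edgeR adjusted p = 0.0277), a call that was lost with DESeq2, with library totals alone, and without any 1 of 5 libraries, namely the 3 control libraries and libraries 2 and 3 of the group labelled knockout.

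The factors that hold back the trophoblast in mESCs were split evenly, with 4 of 10 lower, 4 higher and 2 not called. This is near the shares over all genes tested, 35.2% lower and 34.4% higher. The median log2 fold change of these factors was -0.0013. Pou5f1, whose loss turns mESCs towards trophoblast, was high in every library, with 31372 to 32202 fragments in the control lines and 32177 to 37653 in the lines labelled knockout, with a log2 fold change of 0.20. Nanog had 11989, 11539 and 11526 fragments in the control lines and 23971, 22602 and 26280 in the lines labelled knockout, with a log2 fold change of 1.13 (edgeR adjusted p = 1.20e-39). It lies on the same end of chromosome 6 as Tead4, where the median of the 192 other genes within 10 Mb was 0.51. Sox2 rose by 0.43, and Dnmt3b and Dnmt3a, the de novo methyltransferase genes, fell by 2.07 and 0.33.

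**Figure D5:**
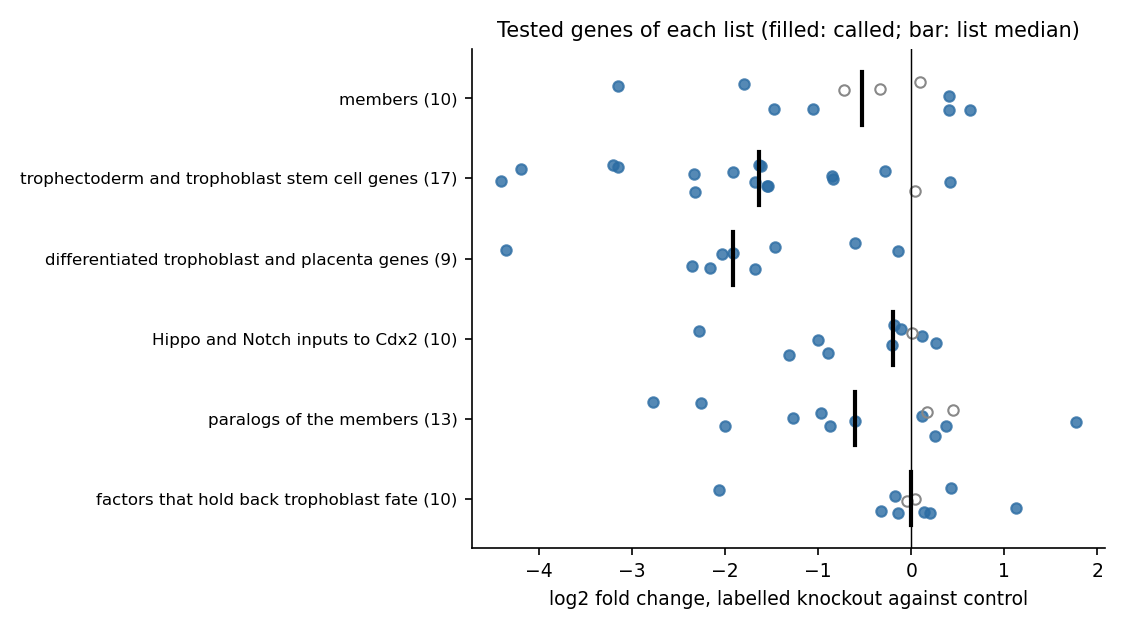
Log2 fold change (labelled knockout against control) of the tested genes of each list, with the number tested in brackets, filled points for genes called and open points for those not called, and a bar at the list median. The medians are -0.53 for the 10 members, -1.64 for the trophectoderm and trophoblast stem cell genes, -1.92 for the placenta genes, -0.20 for the Hippo and Notch genes and -0.61 for the paralogs, and the factors that hold back trophoblast fate lie on both sides of 0.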

How the data were processed

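After rRNA reads had been removed with Bowtie2 (2.1.0), the authors mapped the rest to mm10 with TopHat (2.0.10) and counted fragments of GENCODE M4 genes with htseq-count (0.6.1) by strand, leaving out fragments of multiple genes or locations. Raw counts were deposited, with no normalization. Symbols, positions and lengths came from GENCODE M21 by Ensembl identifier (42425 of 43309 genes matched). Genes with at least 10 counts in 1 library were kept, as in the methods of the study, and tested with the quasi-likelihood test of edgeR 4.0.16 in R 4.3.3 after TMM normalization, with no covariate and Benjamini-Hochberg adjustment over all 16823 genes. The procedure was tested on simulated data. In them few genes changed, all of them well counted. That test therefore does not cover genes of low count or a share of calls as high as here. SE is the log2 fold change divided by the square root of F, and intervals cover 95%. Floors cover counting error only, since fragments carry no molecular identifiers. The members, and the lists of trophoblast, placenta, Hippo and Notch, paralog, restraining and marker genes, were chosen with earlier results of these data known. Named were all members, Zbtb24, and of each list at most 4 genes, the 2 largest rises and 2 largest falls among called genes whose groups do not overlap and whose mean count is 20 or more. Genes named beyond that rule (among them Fgfr2, Peg10, Pou5f1, Dnmt1, Yap1, Wwtr1, Tead2, Cdx4, Gata1, Gata6, Pparg, Krt5, Trp63, Lats2, Notch1, Sox17, Foxa2 and the genes not tested) were chosen after their values were seen. Alternatives were DESeq2 1.42.0, the likelihood ratio and exact tests, other scalings and filters, thinning to equal totals, a replicate block, each library left out, and the median of neighbouring genes. The window of 5 Mb was chosen after seeing the data.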

Additional observations from a re-analysis of the deposited data

How the results depend on the processing

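Directions of all 10 members and of Zbtb24 held in every refit that tested them, and Elf5 was not tested with the filter of filterByExpr. With the adjusted p alone 7 members were called in each refit, except that Cdx2 lost its call with DESeq2 and without library 1 of the group labelled knockout, and Ets2 gained one without control library 1. When genes also had to differ by at least 1 on the log2 scale, the calls came down to 4 members, 2865 of 11697 genes, 29 of the genes on the 5 lists, 3 of the Hippo and Notch genes, 5 of the paralogs and 2 of the factors that hold back trophoblast fate. Vgll4 turned to -0.24 relative to the genes within 10 Mb and to -0.24 relative to those within 5 Mb, and the cause was not tested. Relative to the genes within 5 Mb, Zbtb24 stood at 1.05, Tfap2a at -0.52, Tead1 at 0.31 and Amot at -1.41. Relative to the genes within 10 Mb, Tead4 came to 0.07, Ets2 to 0.02, Nanog to 0.62, Zfp42 to -0.34, Mixl1 to 0.69, Pax6 to -0.26, Sox1 to 1.88 and Lats1 to 0.28. The replicate numbers did not pair the libraries, since deviations from the group mean correlated at 0.0166, 0.0734 and 0.0135 between same-numbered libraries. With the replicate block 7 members and 11801 genes were called, and no gene named by the rule changed its call. Depth limits Elf5, Cdx2 and Tfap2a, which had at most 50 fragments in any library.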

Other observations

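Markers of 2 lineages that the trophoblast genes do not cover moved in both directions, as did all genes tested, with 35.2% lower and 34.4% higher. Of the 6 primitive endoderm markers 3 were lower, 1 higher and 2 not called in the libraries labelled knockout, but 2 of the 3 lower ones, Sox17 and Foxa2, were tested through control libraries alone. Sox7, a factor of parietal endoderm, had 39, 35 and 27 fragments in the control lines and 64, 79 and 84 in the lines labelled knockout, with a log2 fold change of 1.24 (edgeR adjusted p = 1.05e-08), while Gata4 fell by 0.97. The summed level of the 6 was 10.7 to 11.8 CPM in the control lines and 9.69 to 11.7 in the lines labelled knockout, so the ranges overlapped.

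Of the 5 neural markers 4 were tested, 2 of which were lower, 1 higher and 1 not called. Nes, an intermediate filament gene of progenitors and many other cells, had 2700, 2550 and 2649 fragments in the control lines and 499, 461 and 537 in the lines labelled knockout, with a log2 fold change of -2.33 (edgeR adjusted p = 2.12e-42). Sox1, an early neural factor gene, rose from 32, 25 and 23 fragments to 57, 58 and 64, and the median of the 96 other tested genes within 10 Mb of it was -0.65. Pax6 fell by 0.44.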
